A study of Mus musculus with 18 samples.

Results

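The epithelium of mouse mammary buds 1 to 3 at stage E13.5, where E stands for days of embryonic development, was compared by RNA sequencing between embryos with stabilized β-catenin and control littermates. The comparison used 8 of the 18 libraries of the series, 4 per genotype, chosen by stage and genotype label alone. Control embryos were Krt14wt/wt; Ctnn1bflox3/wt and stabilized embryos were Krt14Cre/wt; Ctnn1bflox3/wt, in the submitters' spelling. Every embryo thus carried the same floxed allele, and Cre was present in the stabilized embryos alone, so an effect of Cre itself and an effect of stabilized β-catenin cannot be told apart. Krt14-driven Cre removes exon 3 of the β-catenin gene in epithelial cells, which leaves 1 stabilized and 1 wild-type allele. Mice were on a mixed background of C57Bl/6 and NMRI. The bud epithelium was freed with enzymes and dissected with needles, and each library pooled tissue from 2 to 3 embryos of 1 litter and genotype. Embryos of both sexes entered the E13.5 pools, at least 3 litters were used, and which litter gave which library is not given in the sources used here. In bulk tissue, fewer cells of a type and less RNA per cell cannot be told apart.

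β-catenin carries the canonical Wnt signal: without Wnt it is phosphorylated on residues encoded by exon 3 and destroyed, and when it accumulates it enters the nucleus and acts with transcription factors of the Tcf/Lef family. In the embryonic skin, Wnt signalling is needed for the placodes that form both mammary buds and hair follicles. Mammary buds at this stage are small epithelial bulbs that express Tbx3, Gata3 and Pthlh, and they sprout into the underlying tissue a few days later.

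Because Tcf/Lef factors bind a short DNA core, the promoters of 5 genes that rose are shown: Sp5, a zinc finger factor known as a direct Wnt target; Ascl4, a basic helix-loop-helix factor; Nrp2, a semaphorin coreceptor; and the neighbouring growth factor genes Fgf3 and Fgf4, which had no counts in any control library. These genes were picked after their values were seen. Each sequence is the 250 bases before the RefSeq gene start in GRCm38.p6, written 5′ to 3′ on the gene's own strand, and capitals mark the core CTTTGAA or CTTTGAT or its reverse complement.
Sp5, chr2:70474673-70474922, plus strand: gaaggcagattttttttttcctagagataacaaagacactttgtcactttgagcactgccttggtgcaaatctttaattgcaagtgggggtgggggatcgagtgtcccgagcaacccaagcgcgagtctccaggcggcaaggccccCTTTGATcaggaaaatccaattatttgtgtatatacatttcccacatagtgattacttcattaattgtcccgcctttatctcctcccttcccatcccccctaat
Ascl4, chr10:85927152-85927401, plus strand: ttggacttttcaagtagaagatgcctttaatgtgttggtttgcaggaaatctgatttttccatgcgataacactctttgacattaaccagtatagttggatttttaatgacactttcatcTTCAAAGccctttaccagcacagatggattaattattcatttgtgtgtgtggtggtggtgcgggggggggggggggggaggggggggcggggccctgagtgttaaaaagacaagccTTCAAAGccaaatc
Nrp2, chr1:62703067-62703316, plus strand: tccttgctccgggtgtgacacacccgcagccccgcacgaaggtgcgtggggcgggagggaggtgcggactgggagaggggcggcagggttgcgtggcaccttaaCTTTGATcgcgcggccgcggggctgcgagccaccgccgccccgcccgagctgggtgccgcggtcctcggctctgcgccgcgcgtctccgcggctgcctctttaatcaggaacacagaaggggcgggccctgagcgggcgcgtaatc
Fgf3, chr7:144838362-144838611, plus strand: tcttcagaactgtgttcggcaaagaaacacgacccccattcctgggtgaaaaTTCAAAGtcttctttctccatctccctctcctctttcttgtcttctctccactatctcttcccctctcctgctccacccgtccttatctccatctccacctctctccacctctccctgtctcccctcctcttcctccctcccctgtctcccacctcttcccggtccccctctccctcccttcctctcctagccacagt
Fgf4, chr7:144861136-144861385, plus strand: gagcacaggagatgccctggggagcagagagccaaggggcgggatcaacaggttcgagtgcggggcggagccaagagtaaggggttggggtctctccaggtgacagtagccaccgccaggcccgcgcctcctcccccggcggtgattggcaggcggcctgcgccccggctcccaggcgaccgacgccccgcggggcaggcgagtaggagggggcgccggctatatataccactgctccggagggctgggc
Ascl4 held the core 2 times, Sp5, Nrp2 and Fgf3 held it 1 time each, and the window of Fgf4 did not hold these letters. The first base of the core lay 104 bases before the start of Sp5, 146 before that of Nrp2 and 198 before that of Fgf3. The core stood in 849 of the 12300 tested genes with a promoter in the table (6.9%), in 90 of 1220 genes that rose (7.38%) and in 36 of 694 that fell (5.19%). Among genes that rose at least 4-fold, 39 of 430 held it (9.07%), against 4 of 88 genes that fell at least 4-fold (4.55%). A match of these letters is a description of the window and no evidence of binding.

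Stabilized and control buds were called as different at 2569 of 17269 tested genes (14.9%), of which 1655 were higher in stabilized buds (9.58%) and 914 lower (5.29%). A change of at least 2-fold was called for 1067 genes upward (6.18%) and 398 downward (2.3%). The CPM values of the genotypes did not overlap for 1715 genes with stabilized buds higher (9.93%) and 1140 with stabilized buds lower (6.6%), called or not. Values are CPM, counts per 1000000 counts of the scaled library, with the SD over 4 libraries; a gene is called, and said to rise or fall, where edgeR's quasi-likelihood test gave an adjusted p below 0.05 over all tested genes. Log2 fold changes are stabilized minus control, with their SE. The genes that rose had a median of 12.33 CPM in control and 33.14 CPM in stabilized buds. Those that fell had medians of 46.42 and 22.04 CPM, and all tested genes 17.02 and 17.36 CPM. These medians depend on the floor, as genes near 0 in controls can hardly be called as lower. Below a control mean log2 CPM of 0, 11.89% of genes rose and 0.27% fell.

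The libraries held 26768810 to 29310457 counts. More genes had a count in stabilized libraries (17293 to 18192) than in controls (16072 to 16953), and the groups also stood apart at equal depth (exact permutation test, two-sided, p = 0.0286, the smallest p that 4 against 4 allows). The gene that was targeted, Ctnnb1, measured 2421, 2671, 3156 and 2482 CPM in the control libraries and 2758, 3299.7, 3496 and 3487 CPM in the stabilized libraries, and it was not called (log2 fold change 0.28, SE 0.16, adjusted p = 0.307). Counts per gene do not show the loss of an exon, so this value does not check the genotype. Krt14, the basal keratin gene that names the Cre line, was present in every library at 756, 721, 958 and 815 CPM in the control libraries and 362, 416, 355 and 264 CPM in the stabilized libraries, lower in the stabilized buds without overlap (log2 fold change -1.22, SE 0.25, adjusted p = 0.00169). The summed level of 9 epithelial markers was 2658 to 3212 CPM in controls and 2631 to 3399 CPM in stabilized buds. Within this sum Krt5 rose (log2 fold change 1.16) while Krt14 and Krt8 fell (-1.22 and -1.69), so it does not show even members. The 6 bud markers summed to 2767 to 3899 CPM in controls and 1449 to 1751 CPM in stabilized buds. Tbx3, Gata3, Pthlh and Lef1 among them fell, and the part of each member in the sum is not given here. Stabilized replicate 2 lay nearest the controls at many called genes, and control replicate 3 lay nearest the stabilized buds at many that fell. Without either or both, more genes were called: 1918 rose and 1117 fell without control replicate 3, 1694 and 958 without stabilized replicate 2, and 2188 and 1262 without both. The fit to the 8 E13.5 libraries alone called 1020 and 631, and a fit with the factors implied by the second deposited table as offsets, which differ between genes, called 1147 and 561.

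The largest rises among well-expressed genes included secreted regulators, matrix proteins and a biosynthetic enzyme. The largest falls included ion channels, guidance cues and growth factor receptors. Only called genes whose genotypes did not overlap could be named among the largest rises and falls, here and among transcription factors. Lack of overlap at those genes, wherever they appear, is therefore a condition of the choice and no added support. Wif1, a secreted inhibitor that binds Wnt proteins, measured 3.67, 1.13, 21.2 and 3.17 CPM in the control libraries and 288, 161, 389 and 401 CPM in the stabilized libraries. It was low in every control library and higher in each stabilized library than in any control (log2 fold change 5.41, SE 0.71, adjusted p = 6.55e-05). Thbs1, a matrix glycoprotein that binds cells and growth factors, rose from 10.9 ± 10.5 to 371 ± 168 CPM (log2 fold change 5.10, SE 0.58, adjusted p = 1.42e-05). Pycr1, a mitochondrial enzyme that makes proline, measured 10.9, 10.9, 7.36 and 8.77 CPM in the control libraries and 305, 127, 290.4 and 277 CPM in the stabilized libraries. The groups were far apart at Pycr1 and its control libraries were alike (log2 fold change 4.72, SE 0.26, adjusted p = 4.41e-10). Col14a1, a fibril-associated collagen, rose from 12.9 ± 11.6 to 258 ± 106 CPM (log2 fold change 4.32, SE 0.54, adjusted p = 3.65e-05), and Rai14, an actin-associated protein, rose from 8.24 ± 5.70 to 162 ± 39.9 CPM.

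Among the falls, Kcnd3, a voltage-gated potassium channel, measured 83.8, 82.1, 53.9 and 85.4 CPM in the control libraries and 2.53, 5.87, 2.56 and 5.40 CPM in the stabilized libraries. All 4 stabilized libraries were below the lowest control (log2 fold change -4.22, SE 0.31, adjusted p = 1.57e-08). Ndnf, a secreted neurotrophic protein, fell from 1126 ± 262 to 60.7 ± 72.9 CPM (log2 fold change -4.21, SE 0.65, adjusted p = 3.07e-04). Irs4, an adaptor of insulin and insulin-like growth factor receptors, fell from 202 ± 89.98 to 17.2 ± 9.10 CPM (log2 fold change -3.55, SE 0.54, adjusted p = 2.20e-04). Dusp10, a phosphatase that switches off stress-activated MAP kinases, fell from 109 ± 17.9 to 10.2 ± 2.96 CPM (log2 fold change -3.41, SE 0.27, adjusted p = 4.48e-08). Nalcn, a sodium leak channel, measured 100.01, 114, 66.8 and 113 CPM in the control libraries and 7.25, 21.2, 8.45 and 6.18 CPM in the stabilized libraries, again with no overlap (log2 fold change -3.19, SE 0.34, adjusted p = 2.06e-06). Rtn4rl1, a relative of the Nogo receptor, Btbd3, which orients dendrites in neurons, and Atp8a1, a phospholipid flippase, fell as well (log2 fold changes -4.00, -2.88 and -2.86).

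In controls, 653 tested genes had 0 counts in all 4 libraries, and 170 of them were called as higher. In stabilized buds, 382 had 0 counts in all 4 libraries, and 13 of those were called as lower. The filter ran over all 18 libraries, so such genes were tested through counts in the other genotype or at E16.5. A gene at 0 in controls can only be called as higher, and a gene at 0 in stabilized buds only as lower. These numbers are therefore no result about direction. Fgf15, a growth factor gene beside Fgf4, had no control count and 17.99, 15.6, 9.77 and 10.01 CPM in the stabilized libraries, at least 569.9-fold higher against a floor of 3 counts over the 4 controls. Zic2, a zinc finger factor of early neural and skin development, had no control count and 6.98, 6.64, 13.1 and 16.6 CPM in stabilized libraries (at least 463-fold higher). In the other direction, Areg, the Egf receptor ligand amphiregulin, measured 0.917, 1.28, 1.87 and 5.66 CPM in controls and had no count in any stabilized library (at least 96.3-fold lower). At all 3 genes the genotypes did not overlap, which follows from 0 counts in 1 genotype and counts in every library of the other.

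Transcription factor genes were grouped by family. Of 544 tested members of the named families other than Zfp and Zscan, 140 rose (25.7%) and 48 fell (8.82%). The same shares over all tested genes were 9.58% and 5.29%, the background for every list count below. The median log2 fold change of these 544 genes was 0.19, against 0.01 over all tested genes. Of 407 zinc finger genes named Zfp or Zscan, 5 rose (1.23%) and 20 fell (4.91%, near the background share), with a median of -0.24. Their rising count was 3 without stabilized replicate 1 or 3 and 2 without stabilized replicate 4, and DESeq2 called 8 up and 47 down. Their falling count was 13 without control replicate 1 or stabilized replicate 1, 9 without stabilized replicate 3 and 12 without stabilized replicate 4, and 41 without control replicate 3 and stabilized replicate 2 together.

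**Figure D1:**
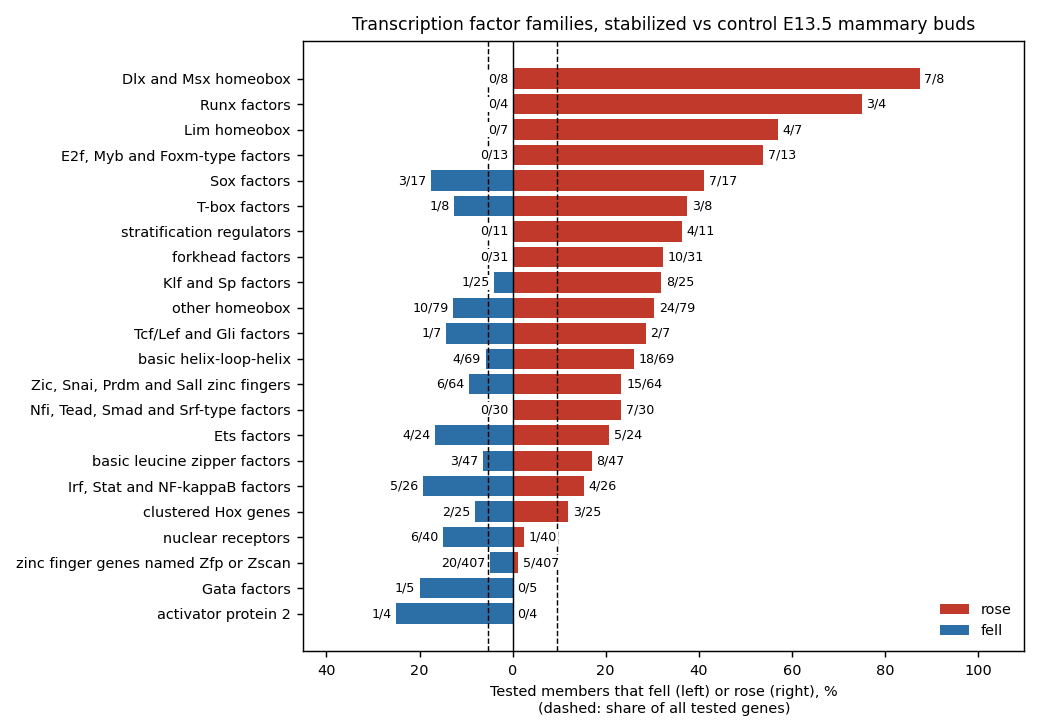
Share of the tested members of each transcription factor family that rose (bars to the right) or fell (bars to the left) in stabilized E13.5 buds, in percent, with the number called and the number tested beside each bar. Dashed lines mark the shares over all 17269 tested genes, 9.58% that rose and 5.29% that fell; 7 of 8 Dlx and Msx genes rose, and 6 of 40 nuclear receptors fell.

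Homeobox genes of the Dlx and Msx families, which act in the placodes of skin appendages, rose in 7 of 8 tested cases (median log2 fold change 2.41). Stabilized buds were higher without overlap at 1 of the 8, Dlx2, against 9.93% of all tested genes. With the replicate number as a block, or with the deposited factors as offsets, 5 rose. In the fit to the E13.5 libraries alone, 4 rose. Dlx2 measured 3.96, 5.83, 0.702 and 5.82 CPM in the control libraries and 126, 19.9, 212 and 146 CPM in the stabilized libraries, and its groups did not overlap (log2 fold change 4.95, SE 0.73, adjusted p = 2.01e-04). Dlx3, a factor of the hair matrix and the epidermis, rose from 40.5 ± 5.47 to 118 ± 52.9 CPM (log2 fold change 1.54, SE 0.31, adjusted p = 0.002), with libraries that overlapped. Of the other homeobox genes, 24 of 79 rose and 10 fell. Prox1, a homeobox factor known from lymphatic vessels, lens and liver, measured 56.2, 68.2, 58.5 and 65.5 CPM in the control libraries and 270.5, 374, 291 and 352 CPM in the stabilized libraries. Every stabilized library was above every control at Prox1 (log2 fold change 2.37, SE 0.20, adjusted p = 1.18e-07). En1, which marks ventral ectoderm, had 1 count over the 4 controls and 11.5, 3.22, 11.7 and 12.8 CPM in the stabilized libraries, a ratio of 820.2-fold (95% counting interval 224 to 49494). Hmx3, a factor of the inner ear, likewise had 1 control count and 19.9, 9.82, 31.01 and 24.6 CPM, a ratio of 1783-fold (95% counting interval 489 to 107727). Barx2, a homeobox gene of muscle and epithelial appendages, rose from 1.71 ± 1.33 to 35.1 ± 8.25 CPM (log2 fold change 4.36, SE 0.60, adjusted p = 9.68e-05). Lim homeobox genes rose in 4 of 7 cases, or 2 without stabilized replicate 3; Isl1, a factor of motor neurons and sensory cells, had no control count and 14.1, 2.36, 13.1 and 18.9 CPM in the stabilized libraries.

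Irx3 and Irx5, Iroquois homeobox genes that lie in 1 cluster, fell together. Irx3 measured 621, 596, 500.4 and 672 CPM in the control libraries and 197, 285, 183 and 136 CPM in the stabilized libraries, without overlap (log2 fold change -1.57, SE 0.22, adjusted p = 3.68e-05), and Irx5 fell from 339.9 ± 34.3 to 130.2 ± 36.97 CPM (log2 fold change -1.38, SE 0.18, adjusted p = 1.85e-05). Zfhx3 and Zfhx4, large factors with zinc fingers and homeodomains, fell with log2 fold changes of -1.09 and -2.12. Of 25 clustered Hox genes, which give positional identity along the body axis, 3 rose and 2 fell. Hoxc5 measured 50.02, 47.8, 46.02 and 42.6 CPM in the control libraries and 4.00, 13.47, 6.24 and 6.35 CPM in the stabilized libraries, with no overlap (log2 fold change -2.63, SE 0.39, adjusted p = 8.05e-05). Hoxc8, in the same cluster, fell from 66.7 ± 6.60 to 17.8 ± 9.17 CPM (log2 fold change -1.90, SE 0.34, adjusted p = 6.25e-04). The neighbours Hoxc4 and Hoxc6 were not called (log2 fold changes -1.07 and -0.99, adjusted p = 0.176 and 0.159). In the fit to the E13.5 libraries alone, 0 Hox genes were called up and 4 down, Hoxc4 among them. Hoxd1 and Hoxd3 did not pass the low-count filter of that fit and were not tested there. Hoxd1 and Hoxd3 had no control count and 1.80 and 1.40 CPM on average in stabilized buds.

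Forkhead genes rose in 10 of 31 tested cases (median 0.69); edgeR called 0 as lower, 2 were lower at an unadjusted p below 0.05, and DESeq2 called 0. Foxm1, which drives mitotic genes, rose from 22.9 ± 6.61 to 56.3 ± 9.04 CPM (log2 fold change 1.30, SE 0.18, adjusted p = 3.68e-05). Foxe1, a factor of thyroid and hair follicle, had no control count and 2.98, 2.55, 5.27 and 2.09 CPM in stabilized libraries (at least 138-fold higher). Among Sox factors, 7 of 17 rose and 3 fell. Sox9, a regulator of hair follicle stem cells, measured 157, 151, 85.9 and 130.2 CPM in the control libraries and 253, 347, 312 and 253 CPM in the stabilized libraries. Its genotypes did not overlap (log2 fold change 1.15, SE 0.19, adjusted p = 2.82e-04). Sox2, a factor of stem cells and sensory progenitors, rose from 0.100 ± 0.201 to 12.002 ± 4.40 CPM (log2 fold change 6.88, SE 1.28, adjusted p = 7.81e-04), and Sox5 rose from 2.31 ± 1.07 to 16.9 ± 3.88 CPM (log2 fold change 2.86, SE 0.32, adjusted p = 3.27e-06). Sox6 fell from 35.5 ± 2.24 to 20.3 ± 5.46 CPM (log2 fold change -0.81, SE 0.20, adjusted p = 0.00812). The falling Sox count was 1 without control replicate 4, stabilized replicate 3 or stabilized replicate 4, and the call of Sox6 was lost with the deposited factors as offsets.

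Further families with risers were the Runx, Ets, T-box, basic helix-loop-helix and Zic, Snai, Prdm and Sall groups. Runx1, a factor of hair follicle and blood stem cells, rose from 164 ± 18.2 to 269 ± 33.2 CPM (log2 fold change 0.72, SE 0.13, adjusted p = 5.62e-04), and 3 of 4 genes in its group rose. Ets1 measured 0.207, 0.238, 0.635 and 0.841 CPM in the control libraries and 26.6, 20.4, 26.1 and 36.02 CPM in the stabilized libraries. It was near 0 in each control and 1 of the most changed factors without overlap (log2 fold change 5.84, SE 0.35, adjusted p = 2.44e-09). Nfatc1, a calcium-dependent factor known in quiescent hair follicle stem cells, measured 1.33, 0, 0.468 and 2.59 CPM in the control libraries and 56.8, 29.5, 66.04 and 59.05 CPM in the stabilized libraries (log2 fold change 5.59, SE 0.66, adjusted p = 1.89e-05). Its lowest stabilized library was replicate 2, still above all controls. Tbx2, a close relative of the bud factor Tbx3, rose from 1.68 ± 1.08 to 18.1 ± 10.03 CPM (log2 fold change 3.43, SE 0.62, adjusted p = 7.95e-04), whereas Tbx3 fell from 1330.0 ± 203 to 552 ± 45.1 CPM. Basic helix-loop-helix genes rose in 18 of 69 tested cases (26.1%) and 4 fell (5.8%, near the background share). Without any 1 library other than control replicate 3, 2 fell. Ascl4, whose promoter is printed above, measured 12.3, 13.8, 26.9 and 13.3 CPM in the control libraries and 159, 90.1, 156 and 126 CPM in the stabilized libraries, apart in all 8 libraries (log2 fold change 3.00, SE 0.29, adjusted p = 5.40e-07). Mycn, a growth-promoting Myc family member, rose from 51.7 ± 10.04 to 147 ± 13.1 CPM (log2 fold change 1.51, SE 0.20, adjusted p = 1.94e-05). Casz1, a zinc finger factor, rose from 10.7 ± 2.25 to 99.5 ± 22.8 CPM (log2 fold change 3.22, SE 0.28, adjusted p = 2.68e-07). Sall3 and Sall4, spalt-type zinc finger factors, rose by 5.36 and 3.45 on the log2 scale. Klf and Sp genes rose in 8 of 25 cases, or 4 to 5 when any 1 of control replicates 1 and 2 and stabilized replicates 1, 3 and 4 was left out. Sp5 rose from 21.8 ± 4.67 to 131 ± 37.8 CPM (log2 fold change 2.58, SE 0.29, adjusted p = 3.63e-06) and Sp6, known from teeth and hair, rose from 37.2 ± 5.42 to 189.9 ± 45.1 CPM (log2 fold change 2.35, SE 0.30, adjusted p = 1.85e-05).

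**Figure D2:**
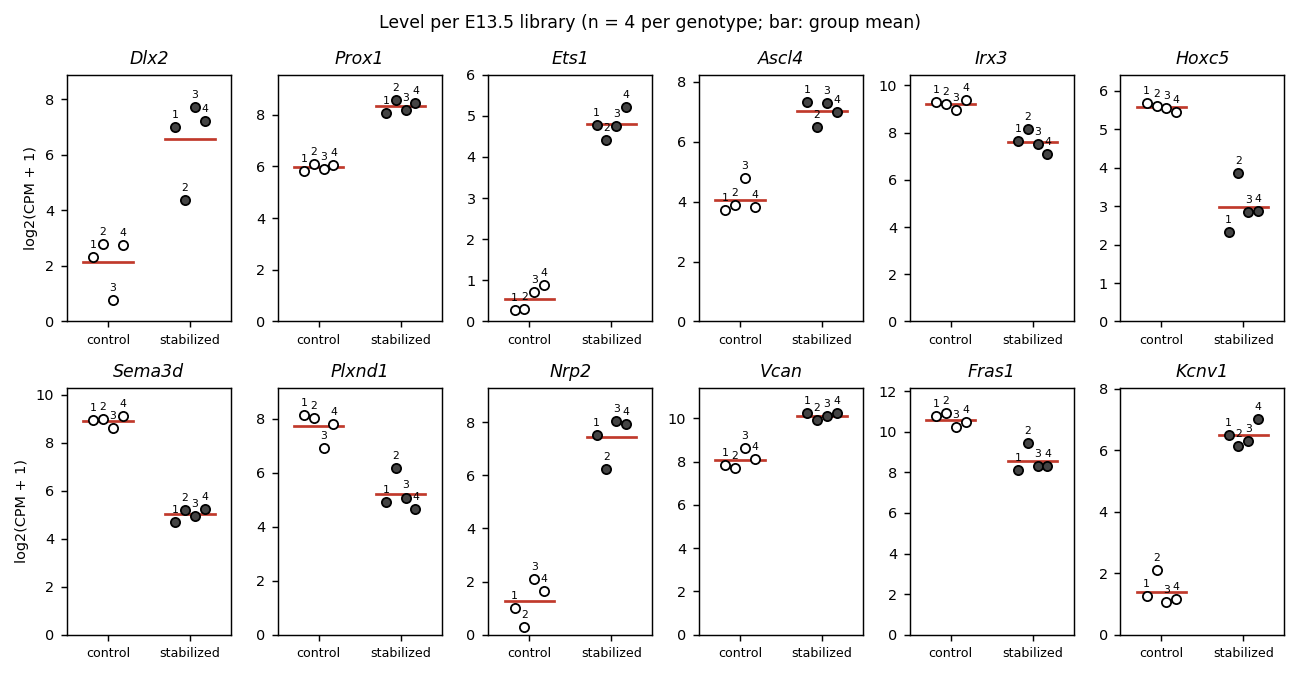
Level of 12 genes in each E13.5 library as log2(CPM + 1), with open circles for the 4 controls, filled circles for the 4 stabilized buds, numbers for the replicate, and a bar for each group mean. The upper row holds transcription factors and the lower row holds guidance, matrix and channel genes; the genotypes do not overlap in any panel.

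Nuclear receptors, the factors that respond to steroid, thyroid and vitamin ligands, fell in 6 of 40 cases and rose in 1 (median -0.11), and 3 fell without stabilized replicate 3 and 2 rose without control replicate 4. Esr1, the oestrogen receptor, measured 28.2, 27.7, 41.001 and 31.5 CPM in the control libraries and 3.90, 8.26, 5.34 and 3.44 CPM in the stabilized libraries. Each control was above all stabilized libraries (log2 fold change -2.62, SE 0.67, adjusted p = 0.0118), and the call was lost with the deposited factors as offsets. Embryos of both sexes were pooled, and the sex makeup of each pool is not given in the sources used here; 4 Y-linked genes summed to 145.3 to 185.2 CPM in controls and 129.1 to 188.9 CPM in stabilized buds, and the part of sex in this result was not tested. Nr3c1, the glucocorticoid receptor, was the riser, from 14.7 ± 4.89 to 32.4 ± 7.51 CPM (log2 fold change 1.14, SE 0.21, adjusted p = 8.07e-04). Hic1, a repressor of transcription, fell most among the factors without overlap whose mean log2 CPM reached 1, from 27.5 ± 8.68 to 2.24 ± 0.948 CPM (log2 fold change -3.62, SE 0.55, adjusted p = 9.21e-05). Stat5a, which carries prolactin signals in the mammary gland, fell from 7.32 ± 1.70 to 1.75 ± 0.466 CPM (log2 fold change -2.06, SE 0.33, adjusted p = 1.61e-04). Of the Irf, Stat and NF-kappaB families, 5 of 26 fell and 4 rose, or 8 fell without control replicate 3, and the call of Stat5a was lost with the deposited factors as offsets. Klf7 fell from 167 ± 52.97 to 53.1 ± 8.08 CPM (log2 fold change -1.66, SE 0.21, adjusted p = 1.64e-05), and Glis3, a Krüppel-like factor, fell from 58.1 ± 7.72 to 19.2 ± 2.53 CPM (log2 fold change -1.60, SE 0.28, adjusted p = 4.19e-04).

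In the Fgf pathway, 7 of 18 tested ligand genes rose and 3 fell, and 8 of 19 receptor and feedback genes rose and 3 fell. Spry2, an inhibitor that Fgf signalling itself induces, measured 32.95, 28.3, 57.6 and 62.5 CPM in the control libraries and 202, 124, 208 and 180.4 CPM in the stabilized libraries. All stabilized libraries were higher (log2 fold change 1.98, SE 0.24, adjusted p = 6.28e-06). Etv5, an Ets factor induced by Fgf signalling, rose from 92.2 ± 16.9 to 208 ± 11.8 CPM (log2 fold change 1.17, SE 0.16, adjusted p = 2.40e-05), while its relative Etv1 fell from 114 ± 17.1 to 56.1 ± 17.6 CPM (log2 fold change -1.02, SE 0.23, adjusted p = 0.0036). Among receptors, Fgfr3 rose from 4.89 ± 2.04 to 23.1 ± 6.42 CPM (log2 fold change 2.24, SE 0.30, adjusted p = 2.82e-05). Fgfr2, the receptor that the mammary placode requires, fell from 846 ± 151 to 573 ± 80.9 CPM with overlapping libraries (log2 fold change -0.56, SE 0.15, adjusted p = 0.0145), and its call was lost without stabilized replicate 1. Fgf13, an intracellular member of the family, fell from 12.9 ± 4.29 to 2.05 ± 1.13 CPM (log2 fold change -2.65, SE 0.48, adjusted p = 5.50e-04). With the deposited factors as offsets, the calls of Etv1, Fgfr2 and Fgf13 were lost.

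Bmp pathway genes rose in 9 of 35 tested cases and 5 fell. Bmp4, a ligand made in placodes and their mesenchyme, measured 71.4, 75.4, 111 and 75.2 CPM in the control libraries and 395, 251, 339 and 285 CPM in the stabilized libraries. Its genotypes did not overlap (log2 fold change 1.93, SE 0.29, adjusted p = 1.40e-04). Bmp6 rose from 0.133 ± 0.266 to 9.13 ± 1.53 CPM (log2 fold change 6.03, SE 1.11, adjusted p = 8.74e-04). The receptor gene Bmpr1b fell from 16.495 ± 4.52 to 6.01 ± 2.47 CPM (log2 fold change -1.46, SE 0.29, adjusted p = 0.00129), and the ligand gene Gdf6 fell from 17.7 ± 3.41 to 3.48 ± 0.916 CPM (log2 fold change -2.35, SE 0.49, adjusted p = 0.00215). In the TGF-beta and activin list, 8 of 24 rose and 2 fell, or 1 without control replicate 1 or stabilized replicate 1. Fst, the activin antagonist follistatin, rose from 0.154 ± 0.307 to 6.45 ± 3.41 CPM (log2 fold change 5.39, SE 0.84, adjusted p = 2.82e-04), and Ltbp2, a matrix protein of the latent TGF-beta binding family, rose from 0.260 ± 0.427 to 19.3 ± 14.6 CPM (log2 fold change 6.15, SE 0.98, adjusted p = 3.90e-04). Notch pathway genes rose in 10 of 29 tested cases and 2 fell; Maml2, a coactivator of Notch, rose from 54.5 ± 3.23 to 100.5 ± 7.23 CPM (log2 fold change 0.88, SE 0.13, adjusted p = 7.64e-05).

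The Egf family split evenly, with 5 of 19 genes that rose and 5 that fell. Erbb4, the receptor for neuregulins, measured 128, 142, 80.97 and 169 CPM in the control libraries and 8.21, 30.4, 9.77 and 10.6 CPM in the stabilized libraries. Its control range was wide but above all stabilized libraries (log2 fold change -3.14, SE 0.58, adjusted p = 0.00128). Nrg3, a neuregulin known to act in mammary placode formation, fell from 29.2 ± 12.8 to 4.29 ± 1.95 CPM (log2 fold change -2.77, SE 0.68, adjusted p = 0.00867), and Tgfa, another Egf receptor ligand, rose from 1.95 ± 1.60 to 13.52 ± 5.94 CPM (log2 fold change 2.80, SE 0.53, adjusted p = 0.00149). The feedback inhibitors Lrig3 and Errfi1 rose by 1.10 and 1.42 on the log2 scale, Lrig3 not with the deposited factors as offsets. In the insulin-like growth factor axis, 8 of 19 rose and 2 fell, or 5 rose without stabilized replicate 3. The adaptor genes Irs1 and Irs2 rose from 186 ± 30.4 to 317 ± 57.7 CPM and from 40.9 ± 7.90 to 85.95 ± 11.9 CPM, opposite to Irs4. Igfbpl1, a secreted binding-protein relative, rose from 0.0370 ± 0.0740 to 17.3 ± 8.92 CPM (log2 fold change 8.67, SE 1.27, adjusted p = 1.01e-04). Of 27 Eda and NF-kappaB genes, 9 fell and 4 rose, with 5 falling without control replicate 1, control replicate 2 or stabilized replicate 1. Edar, the receptor for the placode ligand Eda, rose from 143 ± 21.5 to 251 ± 20.3 CPM (log2 fold change 0.81, SE 0.17, adjusted p = 0.00209), while Bcl3, an NF-kappaB coregulator, fell from 8.22 ± 3.26 to 0.838 ± 0.457 CPM (log2 fold change -3.29, SE 0.52, adjusted p = 1.56e-04). Among chemokine, TNF and interleukin genes, 9 of 99 rose, near the background share, and 4 fell. The falling count was 2 when any 1 of control replicates 1, 2 and 4 and stabilized replicates 1 and 4 was left out. The risers included the chemokine Cxcl12 (from 0.194 ± 0.326 to 12.8 ± 4.90 CPM, log2 fold change 5.98, SE 0.83, adjusted p = 5.92e-05) and its receptor Cxcr4 (from 4.58 ± 2.47 to 50.3 ± 7.26 CPM, log2 fold change 3.46, SE 0.36, adjusted p = 2.43e-06).

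Most of the called guidance genes of the semaphorin, Eph and protocadherin families fell. Of 30 semaphorin, plexin and neuropilin genes, 11 fell (36.7%) and 4 rose, against 5.29% and 9.58% of all tested genes, and the median log2 fold change was -0.27; 7 fell without stabilized replicate 4. Sema3d, a secreted class 3 semaphorin, measured 487, 512, 395 and 559 CPM in the control libraries and 24.8, 35.9, 30.1 and 37.1 CPM in the stabilized libraries. Each stabilized library was far below each control (log2 fold change -3.93, SE 0.22, adjusted p = 4.41e-10). Sema3a and Sema3e, of the same class, fell from 186 ± 20.3 to 77.3 ± 18.5 CPM (log2 fold change -1.27, SE 0.18, adjusted p = 5.31e-05) and from 132 ± 8.90 to 52.2 ± 7.65 CPM (log2 fold change -1.34, SE 0.17, adjusted p = 1.31e-05). Plxnd1, the receptor for Sema3e, measured 283, 261, 121 and 224 CPM in the control libraries and 29.6, 70.9, 33.02 and 24.5 CPM in the stabilized libraries, without overlap (log2 fold change -2.49, SE 0.32, adjusted p = 2.84e-05). Nrp2, the coreceptor of class 3 semaphorins whose promoter is printed above, moved in the other direction, with 1.01, 0.238, 3.24 and 2.14 CPM in the control libraries and 182, 74.6, 266 and 244 CPM in the stabilized libraries. Its highest control was below its lowest stabilized library (log2 fold change 6.86, SE 0.78, adjusted p = 1.75e-05). Plxna4, a plexin that acts with neuropilins, rose from 9.94 ± 5.98 to 48.3 ± 21.3 CPM (log2 fold change 2.28, SE 0.45, adjusted p = 0.00157).

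Eph receptors and ephrins, which signal by contact between cells, fell in 7 of 22 cases and rose in 2 (median -0.36). With the deposited factors as offsets 3 fell. The rising count was 1 when control replicate 3, control replicate 4, stabilized replicate 2 or stabilized replicate 4 was left out. Epha7 measured 554, 521, 427 and 587 CPM in the control libraries and 94.9, 178, 103 and 112 CPM in the stabilized libraries, with stabilized buds lower throughout (log2 fold change -2.10, SE 0.24, adjusted p = 3.94e-06). Epha4 fell from 301 ± 16.3 to 123 ± 34.9 CPM (log2 fold change -1.29, SE 0.17, adjusted p = 2.00e-05; not called with the deposited factors as offsets), and the ligand Efnb2 fell from 627 ± 105 to 352 ± 42.97 CPM (log2 fold change -0.83, SE 0.15, adjusted p = 7.47e-04). Ephb1 was nearly absent from controls and measured 0.0887, 0, 0 and 0.0324 CPM in the control libraries and 48.7, 19.5, 50.3 and 47.99 CPM in the stabilized libraries (log2 fold change 10.21, SE 0.47, adjusted p = 7.90e-11). In the Slit, Robo and netrin list, 4 of 24 rose and 4 fell. Slit3 rose from 5.24 ± 2.65 to 30.5 ± 7.51 CPM (log2 fold change 2.54, SE 0.29, adjusted p = 3.89e-06). Rgma and Rgmb, repulsive guidance molecules that also act as Bmp coreceptors, both fell, Rgmb from 330.2 ± 56.6 to 59.4 ± 28.3 CPM (log2 fold change -2.47, SE 0.22, adjusted p = 2.47e-07) and Rgma from 172 ± 69.6 to 51.4 ± 12.2 CPM (log2 fold change -1.74, SE 0.25, adjusted p = 6.49e-05). Of 65 protocadherins, 8 fell and 2 rose (median -0.51). Pcdh9 fell from 97.7 ± 18.5 to 12.996 ± 5.08 CPM (log2 fold change -2.91, SE 0.29, adjusted p = 7.38e-07) and Pcdh17 from 96.7 ± 24.7 to 17.1 ± 6.41 CPM (log2 fold change -2.50, SE 0.39, adjusted p = 1.84e-04), whereas Pcdhac2 had no control count and 8.41, 2.32, 12.4 and 5.04 CPM in stabilized buds. Classical and related cadherins rose in 7 of 29 cases and fell in 1, Cdh6 (from 783 ± 17.4 to 256 ± 18.6 CPM, log2 fold change -1.61, SE 0.27, adjusted p = 2.79e-04); Cdh4 rose from 0.402 ± 0.345 to 39.9 ± 8.87 CPM (log2 fold change 6.62, SE 0.63, adjusted p = 4.66e-07). Without control replicate 3, or with the deposited factors as offsets, 3 cadherins fell.

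Basement membrane genes changed in both directions: of 15 laminin and basement membrane genes, 7 rose and 2 fell. Lamb3, the β3 chain of the laminin that anchors epithelia to the dermis, rose from 23.6 ± 3.79 to 88.4 ± 40.2 CPM (log2 fold change 1.91, SE 0.26, adjusted p = 3.33e-05). Lama3, the α3 chain of the same trimer, was near the threshold, from 154 ± 24.6 to 115 ± 14.02 CPM (log2 fold change -0.42, SE 0.13, adjusted p = 0.0307), and it was not called when any 1 of control replicates 1, 2 and 4 and stabilized replicates 1, 2 and 4 was left out, which left 1 falling gene in the list. Its call was also lost with the deposited factors as offsets and in the fit to the E13.5 libraries alone. Lama1, an early embryonic chain, measured 307, 337, 163 and 328 CPM in the control libraries and 68.3, 197, 61.6 and 55.4 CPM in the stabilized libraries. Its libraries overlapped (log2 fold change -1.57, SE 0.35, adjusted p = 0.00444), and its call was lost with the deposited factors as offsets. Fras1, which anchors embryonic epithelium to the dermis, measured 1732, 1930.0, 1197 and 1416 CPM in the control libraries and 279, 689, 312 and 320.1 CPM in the stabilized libraries. The control libraries were all higher (log2 fold change -1.97, SE 0.26, adjusted p = 2.42e-05). Npnt, the integrin ligand nephronectin, fell from 205 ± 13.47 to 118 ± 6.35 CPM (log2 fold change -0.80, SE 0.11, adjusted p = 3.88e-05).

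Matrix glycoproteins and proteoglycans rose in 14 of 40 cases and fell in 5. Vcan, the large proteoglycan versican, measured 233, 206, 401 and 277 CPM in the control libraries and 1203, 974, 1115 and 1217 CPM in the stabilized libraries. The genotypes were apart in all libraries (log2 fold change 2.01, SE 0.19, adjusted p = 2.97e-07). Has3, a hyaluronan synthase, rose from 22.96 ± 2.79 to 166 ± 31.8 CPM (log2 fold change 2.85, SE 0.25, adjusted p = 1.47e-07), and its relative Has2 fell from 33.5 ± 10.2 to 16.4 ± 4.88 CPM (log2 fold change -1.03, SE 0.26, adjusted p = 0.0106). Spock2, a testican proteoglycan, rose from 135 ± 45.1 to 732 ± 157 CPM (log2 fold change 2.44, SE 0.24, adjusted p = 6.98e-07). Heparan sulfate genes rose in 9 of 28 cases. They included Sulf2, which removes sulfate groups from heparan sulfate outside the cell (from 27.1 ± 5.73 to 129 ± 27.3 CPM, log2 fold change 2.25, SE 0.22, adjusted p = 5.46e-07), and the glypican Gpc1 (from 145 ± 11.2 to 394 ± 48.8 CPM, log2 fold change 1.44, SE 0.16, adjusted p = 2.02e-06). Among matrix proteases, 12 of 61 rose (19.7%) and 6 fell (9.84%). Adamts9 measured 3.85, 2.97, 5.55 and 2.59 CPM in the control libraries and 49.2, 29.7, 47.3 and 45.6 CPM in the stabilized libraries (log2 fold change 3.52, SE 0.24, adjusted p = 6.85e-09). Adam10, a protease that sheds membrane proteins such as Notch, rose from 143 ± 25.1 to 408 ± 101 CPM (log2 fold change 1.51, SE 0.17, adjusted p = 3.34e-06), and Mmp16 fell from 82.3 ± 15.8 to 17.03 ± 10.1 CPM (log2 fold change -2.27, SE 0.31, adjusted p = 3.00e-05). Col2a1, a cartilage collagen also seen in embryonic epithelia, fell from 182 ± 37.5 to 59.7 ± 4.77 CPM (log2 fold change -1.61, SE 0.39, adjusted p = 0.00907). Of 25 integrin genes 6 rose and 2 fell. The falling count was 1 when control replicate 2 or any 1 of stabilized replicates 1, 3 and 4 was left out. Itgb8, whose protein activates latent TGF-beta, rose from 9.86 ± 3.09 to 42.7 ± 10.3 CPM (log2 fold change 2.11, SE 0.22, adjusted p = 1.26e-06). Contractile genes rose in 8 of 24 cases, among them Synpo2 (from 7.09 ± 3.05 to 114 ± 24.9 CPM, log2 fold change 4.01, SE 0.28, adjusted p = 1.57e-08) and the tropomyosin Tpm1 (from 92.8 ± 28.4 to 264 ± 67.4 CPM, log2 fold change 1.51, SE 0.22, adjusted p = 4.94e-05).

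**Figure D3:**
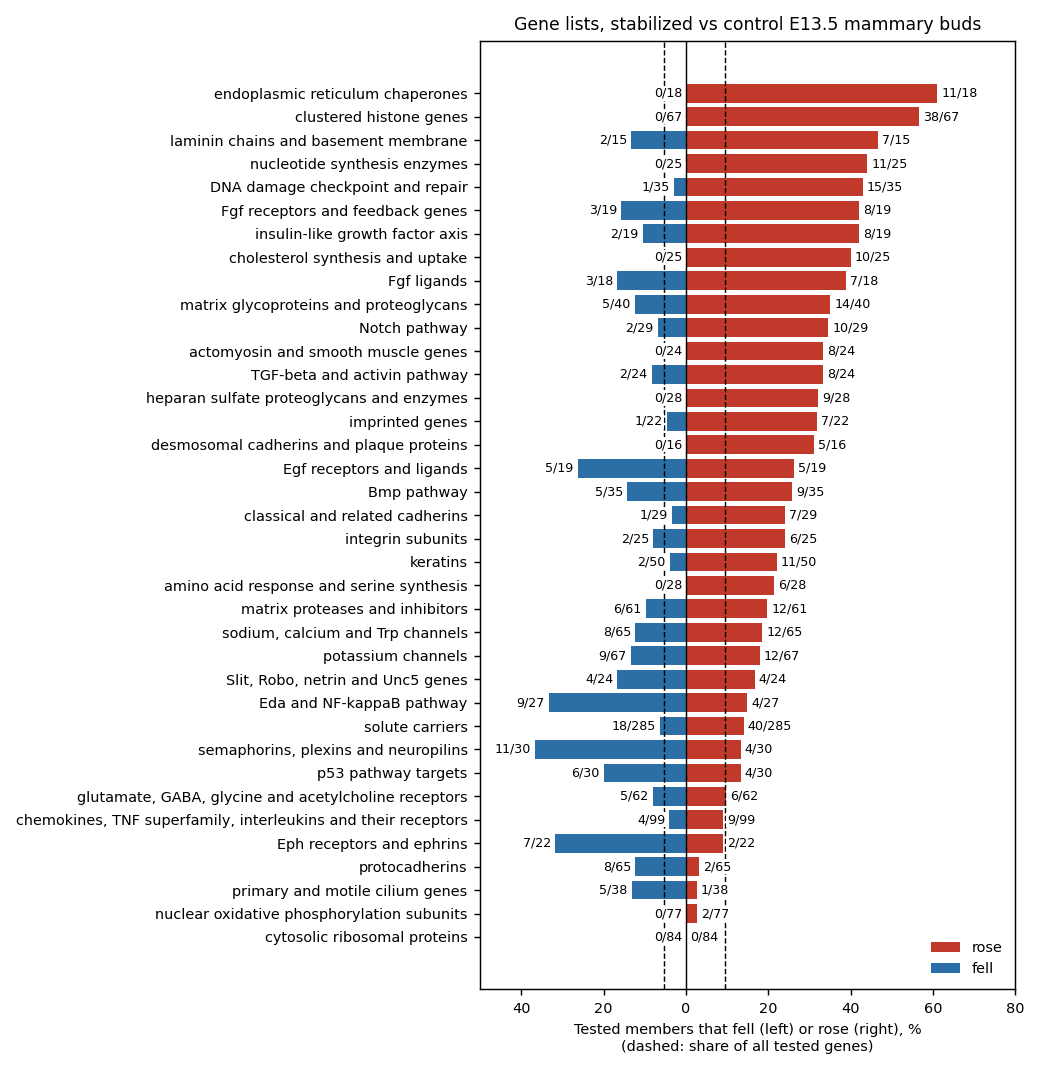
Share of the tested members of each gene list outside transcription factors that rose (bars to the right) or fell (bars to the left) in stabilized E13.5 buds, in percent, with called and tested numbers. Dashed lines mark the shares over all tested genes; semaphorins, Eph genes and protocadherins extend to the left, and chaperones, nucleotide synthesis, cholesterol and DNA repair genes extend to the right.

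Ion channel genes moved in both directions within their lists. Potassium channels rose in 12 of 67 cases (17.9%) and fell in 9 (13.4%), against 9.58% and 5.29% of all tested genes. Their median was 0.07, or 0.09 with members at 0 counts in 1 genotype set at their bound. Sodium, calcium and Trp channels rose in 12 of 65 (18.5%) and fell in 8 (12.3%), with a median of -0.16. Kcnv1, a modifying subunit of potassium channels, measured 1.42, 3.33, 1.07 and 1.26 CPM in the control libraries and 88.5, 69.9, 78.2 and 127 CPM in the stabilized libraries. It was low in all controls (log2 fold change 5.67, SE 0.48, adjusted p = 2.47e-07). Kcnh7 fell from 95.9 ± 6.83 to 15.3 ± 10.6 CPM (log2 fold change -2.65, SE 0.42, adjusted p = 2.20e-04), and Kcnh1, of the same family, rose from 0.957 ± 0.700 to 22.1 ± 5.05 CPM (log2 fold change 4.53, SE 0.64, adjusted p = 8.43e-05). Scnn1b and Scnn1g, subunits of the epithelial sodium channel, rose from 0.502 ± 0.530 to 20.5 ± 10.1 CPM (log2 fold change 5.32, SE 0.66, adjusted p = 2.67e-05) and from 2.46 ± 1.69 to 70.9 ± 36.3 CPM (log2 fold change 4.84, SE 0.73, adjusted p = 2.37e-04). Cacna1e, a voltage-gated calcium channel, rose from 7.19 ± 5.03 to 58.1 ± 13.1 CPM (log2 fold change 3.01, SE 0.41, adjusted p = 3.93e-05), while the T-type channel Cacna1h fell from 117 ± 46.8 to 30.4 ± 10.2 CPM (log2 fold change -1.95, SE 0.27, adjusted p = 4.53e-05). Ano1, a calcium-activated chloride channel, rose from 58.9 ± 14.7 to 169 ± 22.7 CPM (log2 fold change 1.52, SE 0.19, adjusted p = 9.80e-06). Of 62 glutamate, GABA, glycine and acetylcholine receptor genes, 6 rose (9.68%, near the background share of 9.58%) and 5 fell (8.06%, against 5.29%). Without stabilized replicate 2, 8 fell. Gria3, an AMPA-type subunit, fell from 48.3 ± 9.58 to 15.9 ± 6.11 CPM (log2 fold change -1.60, SE 0.26, adjusted p = 2.32e-04). Solute carriers rose in 40 of 285 cases (14.0%) and fell in 18 (6.32%, near the background share of 5.29%). Slc1a5, a glutamine transporter, measured 11.1, 8.83, 6.86 and 3.98 CPM in the control libraries and 50.6, 37.2, 52.9 and 61.01 CPM in the stabilized libraries and did not overlap (log2 fold change 2.71, SE 0.24, adjusted p = 1.49e-07). Slc30a2, a zinc transporter of the mammary gland, had 19.97, 19.1, 25.3 and 29.3 CPM in stabilized libraries and 2 counts in controls, a ratio of 1192-fold (95% counting interval 416 to 12416).

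Most called genes of the biosynthetic lists rose. Nucleotide synthesis enzymes rose in 11 of 25 cases, DNA repair genes in 15 of 35 and clustered histone genes in 38 of 67, groups that are known to follow DNA replication. With the deposited factors as offsets, 7 nucleotide synthesis and 8 repair genes rose, and 9 repair genes rose in the fit to the E13.5 libraries alone. Rrm2, a subunit of ribonucleotide reductase, measured 32.98, 32.1, 24.1 and 25.7 CPM in the control libraries and 53.01, 80.7, 71.1 and 64.2 CPM in the stabilized libraries (log2 fold change 1.23, SE 0.16, adjusted p = 1.46e-05). The repair genes Brca1 and Exo1 rose by 1.35 and 1.38 on the log2 scale, and Fancb, on the X chromosome, was the repair gene that fell (from 35.2 ± 2.34 to 8.26 ± 3.33 CPM, log2 fold change -2.09, SE 0.24, adjusted p = 4.52e-06). Histone genes are near-identical to each other and their counts could be split between copies. Cholesterol synthesis and uptake genes rose in 10 of 25 cases, or 6 without control replicate 1 or control replicate 2. Hmgcs1, an early enzyme of sterol synthesis, rose from 225 ± 30.2 to 386 ± 75.8 CPM (log2 fold change 0.78, SE 0.15, adjusted p = 0.00118). Fatty acid synthesis genes rose in 1 of 22 cases, or 2 without control replicate 2 or 3. Endoplasmic reticulum chaperones rose in 11 of 18 cases by 0.52 to 0.88 on the log2 scale at the 4 with the smallest p, among them Dnajc3 (from 50.8 ± 8.83 to 83.6 ± 12.7 CPM, log2 fold change 0.72, SE 0.14, adjusted p = 0.00133) and Pdia4, whose call was lost with the deposited factors as offsets. That count was 7 without control replicate 1 or stabilized replicate 1, 6 without control replicate 2, 5 without stabilized replicate 3 and 3 with the deposited table's factors as offsets.

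Amino acid response and serine pathway genes rose in 6 of 28 cases, or 2 with the deposited factors as offsets, with the folate enzyme Shmt1 at 17.7, 14.9, 11.6 and 9.93 CPM in the control libraries and 35.2, 33.7, 31.04 and 32.6 CPM in the stabilized libraries. Its genotypes were apart (log2 fold change 1.29, SE 0.15, adjusted p = 4.33e-06), though it was not called with the deposited factors as offsets. Cytosolic ribosomal protein genes were called in 0 of 84 cases by edgeR (median 0.09), with 2 higher and 0 lower at an unadjusted p below 0.05 and 0 called by DESeq2. Without control replicate 3 and stabilized replicate 2 together, 30 were called as higher. Nuclear oxidative phosphorylation genes rose in 2 of 77 cases, in 16 without control replicate 3, in 30 without control replicate 3 and stabilized replicate 2 together and in 1 when any 1 of control replicates 1, 2 and 4 and stabilized replicates 1, 3 and 4 was left out. Control replicate 3 was the library with the highest mitochondrial share of counts, 4.18% against 1.79% to 2.50% in the other E13.5 libraries. Of 34 glycolysis and hypoxia genes, 4 were called up (11.8%, near the background share) and 4 down. The falling count was 1 without stabilized replicate 1 and 2 without stabilized replicate 4. Hk2, a hexokinase, rose from 55.1 ± 10.6 to 160.1 ± 28.005 CPM (log2 fold change 1.54, SE 0.23, adjusted p = 8.84e-05). Among 30 p53 target genes, 4 rose (13.3%) and 6 fell (20.0%), or 3 fell without stabilized replicate 3. Plk2 fell from 279 ± 25.5 to 126 ± 13.6 CPM (log2 fold change -1.14, SE 0.18, adjusted p = 1.58e-04) and Ccng1 fell from 93.96 ± 16.6 to 56.99 ± 9.06 CPM (log2 fold change -0.72, SE 0.15, adjusted p = 0.00243), while Cdkn1a, the cell cycle inhibitor p21, rose from 10.2 ± 4.38 to 384 ± 111 CPM. Bmf, a cell death promoter of the Bcl2 family, fell from 147 ± 28.6 to 59.4 ± 17.1 CPM (log2 fold change -1.31, SE 0.23, adjusted p = 4.36e-04). Imprinted genes rose in 7 of 22 tested cases and 1 fell, or 2 without control replicate 3 or stabilized replicate 2. Peg3 rose from 551 ± 60.9 to 1129 ± 235 CPM (log2 fold change 1.03, SE 0.15, adjusted p = 7.20e-05), and the amino acid transporter Slc38a4 rose from 35.6 ± 6.77 to 128 ± 12.3 CPM (log2 fold change 1.85, SE 0.17, adjusted p = 2.88e-07).

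Epithelial structural genes shifted within their families. Of 50 keratin genes 11 rose (22.0%) and 2 fell (4.0%, near the background share). Krt17, a keratin of hair follicles and placodes, measured 25.1, 20.7, 46.99 and 17.3 CPM in the control libraries and 379, 109, 447 and 369.6 CPM in the stabilized libraries. The lowest stabilized library was above the highest control (log2 fold change 3.57, SE 0.45, adjusted p = 2.48e-05). Krt5, the partner of Krt14, rose from 613 ± 106 to 1369 ± 355 CPM while Krt14 fell. Krt8, a keratin of simple and luminal epithelium, fell from 268 ± 32.8 to 82.8 ± 21.8 CPM (log2 fold change -1.69, SE 0.35, adjusted p = 0.00293). Desmosomal genes rose in 5 of 16 cases, and Dsc2 rose from 16.3 ± 3.27 to 43.1 ± 20.1 CPM (log2 fold change 1.40, SE 0.27, adjusted p = 0.00127). Of 42 cornified envelope genes 2 rose, or 4 without control replicate 3 and 1 without stabilized replicate 3. Of 52 keratin-associated protein genes edgeR called 0 in either direction, with 1 higher and 1 lower at an unadjusted p below 0.05 and 3 called as lower by DESeq2. Hair placode and matrix regulators rose in 17 of 27 cases and fell in 3 (median 1.14). Embryonic mammary regulators rose in 8 of 31 and fell in 9 (median -0.11). Primary and motile cilium genes rose in 1 of 38 and fell in 5, or 0 and 1 with the deposited factors as offsets. Arl13b, a small GTPase of the ciliary membrane, fell from 48.6 ± 2.63 to 32.5 ± 1.30 CPM (log2 fold change -0.58, SE 0.13, adjusted p = 0.00306; not called with the deposited factors as offsets). Uhrf1, which maintains DNA methylation at replication, rose from 160.4 ± 33.5 to 262 ± 28.5 CPM (log2 fold change 0.71, SE 0.16, adjusted p = 0.00346), and Jarid2, a component of Polycomb complexes, fell from 726 ± 50.2 to 406 ± 35.9 CPM (log2 fold change -0.84, SE 0.12, adjusted p = 6.98e-05).

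Counts of called members in further lists moved by over 1.5 times between fits. With the deposited factors as offsets, 6 cholesterol, 5 Igf axis, 5 contractile, 5 Klf and Sp, 4 imprinted, 3 integrin and 3 Ets genes rose. In that fit 11 solute carriers, 5 Eda and NF-kappaB genes, 2 p53 targets, 2 Ets genes and 1 Fgf receptor or feedback gene fell. In the fit to the E13.5 libraries alone, where 15448 genes were tested, 20 solute carriers, 15 other homeobox genes, 7 potassium channels, 7 sodium, calcium and Trp channels, 7 matrix proteases, 6 chaperones, 5 Bmp pathway genes and 5 contractile genes rose. There 4 Dlx and Msx, 4 chemokine, TNF and interleukin, 3 Ets, 3 Egf family, 2 Lim homeobox and 2 Eda and NF-kappaB genes rose and 1 Runx gene did, while 3 Egf family genes and 3 p53 targets fell. DESeq2 called 9 desmosomal and 12 neurotransmitter receptor genes up. Among families shown in the plot of factor families alone, leucine zipper genes fell in 1 case in place of 3 without any 1 of control replicates 1, 2 and 4 and stabilized replicates 1, 3 and 4, and stratification regulators rose in 2 cases in place of 4 without stabilized replicate 3.

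Markers of other cell types were measured because dissected buds can carry neighbouring cells. The 20 mesenchymal markers summed to 134 to 884.8 CPM in controls and 591 to 783.8 CPM in stabilized buds, ranges that overlapped. None was at 0 in all libraries, 2 of 19 tested rose and 1, Thy1, fell (from 34.1 to 17.8 CPM; log2 fold change -0.94). Without control replicate 3, 5 rose; without any 1 of the other libraries apart from stabilized replicate 2, 1 rose; and 0 fell without stabilized replicate 4 or with the deposited factors as offsets. The risers were Dpp4, near the threshold (from 1.39 to 4.48 CPM; adjusted p = 0.0496, not called in 4 of the other fits or without any 1 of 6 libraries), and the matrix protein periostin, Postn, from 88.03 ± 50.1 to 488 ± 132 CPM (log2 fold change 2.47, SE 0.50, adjusted p = 0.00275), and Col1a1 and Col3a1 were not called (log2 fold changes -0.99 and -1.56, adjusted p = 0.522 and 0.447). The part of mesenchymal cells in the matrix results above was not tested. The 15 immune markers summed to 17.01 to 25.37 CPM in controls and 5.82 to 8.99 CPM in stabilized buds, with Tyrobp at 0 throughout. Their sum followed 1 gene, the antigen presentation chain Cd74, which fell from 16.7 to 0.803 CPM, whereas Laptm5 rose, with no control count and 0.229 CPM on average in stabilized buds. The median log2 fold change of the 15 was 0.66, or 0.65 with members at 0 counts in 1 genotype set at their bound. The 10 melanocyte markers summed to 157.4 to 197.8 CPM in controls and 49.44 to 78.7 CPM in stabilized buds; Kit, Ednrb and Mitf made up the 3 that fell, Tyrp1 was at 0, and Dct was not called (from 2.43 to 5.23 CPM), except without control replicate 3. Sox10, a neural crest factor in the same list, rose from 1.32 to 8.16 CPM. The median log2 fold change of the 10 was 0.55, or 1.11 with members at 0 counts in 1 genotype set at their bound, opposite in sign to the sum. The 16 neural and Schwann cell markers summed to 174 to 245.2 CPM in controls and 351 to 401.4 CPM in stabilized buds, with Fabp7 and Cdh19 among those at 0. Tubb3, a tubulin of neurons, accounted for most of that difference (from 8.32 to 183 CPM), Sox2 was the other member that rose, and the neurotrophin receptor Ngfr fell from 12.8 to 2.94 CPM. The 11 endothelial markers (4.34 to 18.09 CPM in controls, 7.30 to 23.8 CPM in stabilized buds), the 9 erythroid markers (0 to 2.48 and 0.398 to 17.2 CPM) and the 11 muscle markers (2.39 to 10.5 and 8.28 to 14.98 CPM) were low in both genotypes, with ranges that overlapped. The 10 Merkel cell markers summed to 284.3 to 355.3 CPM in controls and 169.4 to 189.1 CPM in stabilized buds. Isl1, Sox2 and Rab3c rose, and Krt8 and Piezo2 fell, Piezo2 not with the deposited factors as offsets. The sum followed Krt8, the keratin of simple and luminal epithelium whose fall is given above. The median log2 fold change of the 7 tested was 5.49, or 4.23 with members at 0 counts in 1 genotype set at their bound, opposite in sign to the sum. The defining factor Atoh1 was at 0 in all 8 libraries.

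The called genes were also placed on the chromosomes, using GENCODE M21 positions (GRCm38/mm10). Of 608 protein-coding genes that rose at least 4-fold, 202 had a neighbour that rose (33.22%), against 3028 of 15917 tested protein-coding genes (19.02%); of 125 that fell at least 4-fold, 30 had a falling neighbour (24%), against 1720 of 15917 (10.81%). In 51 neighbouring pairs both genes rose at least 4-fold, and in 3 both fell. The pairs named here were picked after their values were seen. On chromosome 7, Fgf3, Fgf4 and Fgf15 are consecutive and had no control counts, with gaps of 2.9 and 31.3 kb. Hmx3 and Hmx2 stand 3.8 kb apart, Zic5 and Zic2 9.8 kb, and the pairs Dlx1 and Dlx2 and Dlx6 and Dlx5 9.4 and 9.2 kb. The falling pairs were Ifih1 and Gca, Areg and Btc, and Mospd2 and Fancb, the last 0.2 kb apart on the X chromosome; the call of Btc was lost without any 1 of control replicates 1, 2 and 4 and stabilized replicates 1, 3 and 4. Gene families lie in clusters and some neighbours overlap, which was not separated here.

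Across the called genes, stabilized replicate 2 was the stabilized library nearest the controls. It stood nearest in 969 of the 1655 genes that rose (58.5%) and in 517 of the 914 that fell (56.6%). Median positions were taken over the called genes that changed at least 2-fold, 1067 up and 398 down. On the way from the control mean to the stabilized mean, stabilized replicate 2 lay at 81.4% for rising genes and 77.3% for falling genes. The other 3 stabilized libraries lay between 103.6% and 109.4%. Among controls, replicate 3 was nearest the stabilized buds in 474 of the falling genes (51.9%). At rising genes, control replicate 1 was nearest in 570 (34.4%) and control replicate 3 in 487 (29.4%). These positions describe genes chosen with the same libraries and carry no test. In the likeness of whole libraries, Pearson's r across genes was 0.90 to 0.96 between controls, 0.93 to 0.95 between stabilized libraries and 0.88 to 0.92 between genotypes; genes are not independent replicates.

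**Figure D4:**
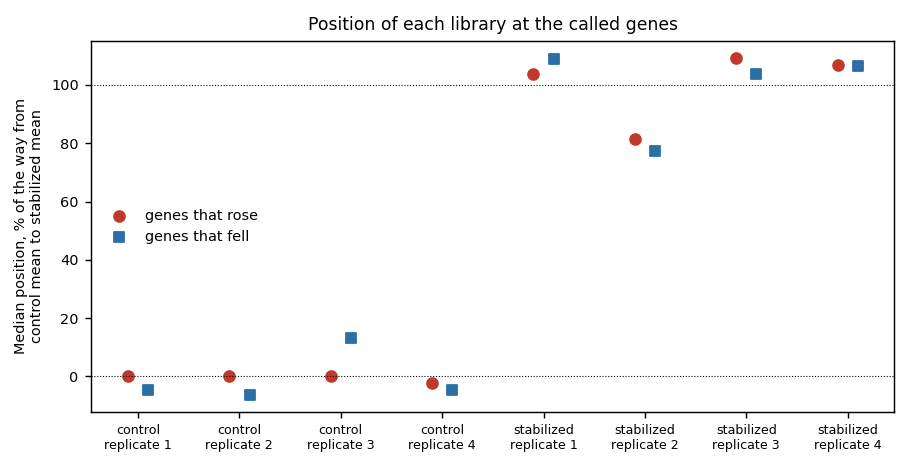
Median position of each E13.5 library along the way from the control mean (0%) to the stabilized mean (100%), in percent. The genes are those called with a change of at least 2-fold, 1067 that rose and 398 that fell. Stabilized replicate 2 lies at 81.4% and 77.3%, below the other stabilized libraries, and control replicate 3 lies at 13.3% for falling genes.

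The E13.5 difference was set beside that at E16.5, where 5 libraries per genotype were made from female embryos; stage and the sex of the embryos therefore cannot be told apart. At E16.5, 3838 genes rose (22.2%) and 3356 fell (19.4%). Of the 1655 genes that rose at E13.5, 702 also rose at E16.5 (42.42% of the E13.5 genes and 18.29% of the E16.5 genes), 502 fell (30.33%) and 451 were not called (27.25%). Of the 914 that fell at E13.5, 191 fell at both stages (20.9% of the E13.5 genes and 5.69% of the E16.5 genes) and 321 rose at E16.5 (35.12%). The difference between stages was itself tested: the genotype effect differed at 5562 genes (32.2%), among them 1724 of the 2569 genes called at E13.5 (67.11%).

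Among the genes with the smallest interaction p, the direction turned between stages. Bcar3, an adaptor of cell adhesion signalling, rose from 9.60 ± 1.27 to 44.1 ± 6.44 CPM at E13.5 and went from 71.7 to 28.4 CPM from control to stabilized buds at E16.5 (interaction -3.54, SE 0.20, adjusted p = 4.68e-10). Acsl4, an enzyme that activates long-chain fatty acids, rose from 26.4 ± 2.37 to 65.3 ± 17.2 CPM at E13.5 and went from 339 to 53.2 CPM at E16.5 (interaction -3.98, SE 0.22, adjusted p = 4.68e-10). Vcan went from 2396 to 582 CPM at E16.5 (interaction -4.05, SE 0.25, adjusted p = 1.07e-09). In the other direction, Flrt3, an adhesion protein that binds Unc5 receptors, fell from 433 ± 59.4 to 193 ± 16.2 CPM at E13.5 and went from 43.99 to 194 CPM at E16.5 (interaction 3.30, SE 0.17, adjusted p = 1.68e-10). Wnt4, the ligand that acts downstream of progesterone in the adult gland, fell from 150.1 ± 17.4 to 67.02 ± 8.04 CPM at E13.5 and went from 8.65 to 121 CPM at E16.5 (interaction 4.97, SE 0.27, adjusted p = 4.68e-10). Tenm2, a teneurin adhesion protein, fell from 353 ± 61.3 to 221 ± 12.1 CPM at E13.5 and went from 11.7 to 381 CPM at E16.5 (interaction 5.70, SE 0.27, adjusted p = 7.77e-11). The E13.5 call of Tenm2 was lost without control replicate 2 and with the deposited factors as offsets.

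**Figure D5:**
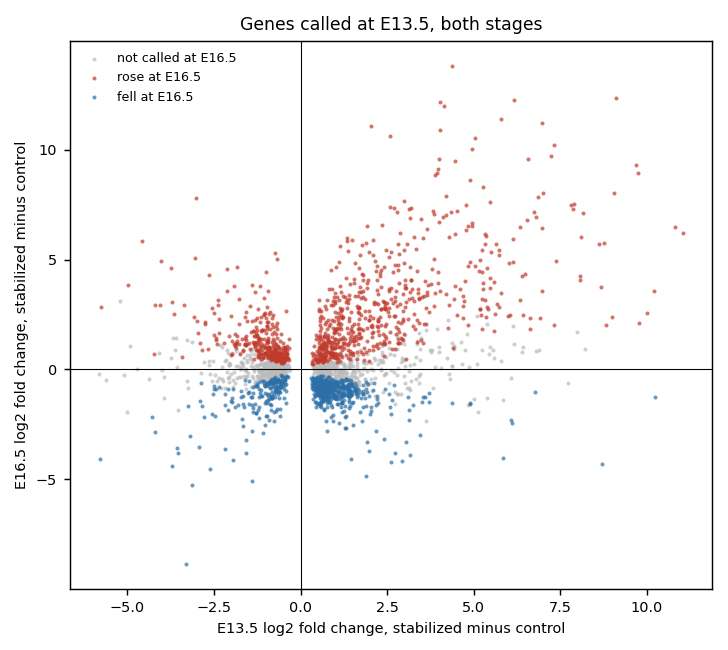
Log2 fold change (stabilized minus control) at E13.5 on the horizontal axis and at E16.5 on the vertical axis for 2386 of the 2569 genes called at E13.5, coloured by their call at E16.5; genes with 0 counts in 1 genotype at E13.5 are left out because their fitted fold is not a measured size. Points in the upper right rose at both stages, and points in the lower right rose at E13.5 and fell at E16.5.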

How the data were processed

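RNA was sequenced from 18 libraries, of which the 8 of E13.5 were compared and the 10 of E16.5 entered the fit. Per the submitters' processing notes, the tools were Salmon 0.99.0, Trimmomatic 0.39, DESeq2 3.15, FastQC 0.11.8 and MultiQC 1.9, with the build mm10; order, settings, annotation release and strandedness: not given in the sources used here. The deposited table holds estimated counts per gene, written as whole numbers by the authors and used as such, for 24376 genes, of which 24166 had a symbol and 38 identifiers share one. In a second deposited table each value is a normalized signal, the count divided by a factor that differs between genes within a library; those factors served only as alternative offsets. A saved R object was not used here.

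The counts were tested in R 4.3.3 with edgeR 4.0.16 (limma 3.58.1): filterByExpr with a minimum count of 10 left 17269 genes, TMM factors scaled the libraries, and a robust quasi-likelihood fit with 1 mean per group over all 18 libraries gave the contrasts, with Benjamini-Hochberg adjustment over all tested genes and a threshold of 0.05. The common dispersion was 0.250. A prior count of 2 entered the log2 CPM values, which gave the mean log2 CPM, the library positions and the correlations. The fitted log2 fold changes did not use it. The E13.5 libraries held 26768810 to 29310457 counts each, and every value rests on those totals. A gene at 0 in 1 genotype is given as a bound against 3 counts over the 4 libraries; intervals of ratios are at the 95% level, and both cover counting error only. On simulated counts of the same comparison over 17269 genes, 53 of 100 genes changed 2-fold and 82 of 100 changed 4-fold were recovered, and 4 unchanged genes were called. The changed genes were far fewer than those called in the data and were drawn above a minimum mean CPM. These rates therefore need not hold for the real contrast or for low genes. Libraries are pools of embryos, so p-values measure the spread between pools.

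Genes and the 98 gene lists were chosen with earlier results of these data known, and so were the members of each list. Names follow a rule: the 12 called genes each way of largest fold whose groups did not overlap and whose mean log2 CPM reached 4; the 6 highest genes at 0 in 1 genotype; the 10 such transcription factors each way whose mean log2 CPM reached 1; up to 4 genes per direction and list by smallest p; the 5 interaction genes per direction by smallest p; and Ctnnb1, Krt14 and Krt5. Predicted genes were left out, and a few genes are not reported here. The printed promoters and the neighbouring pairs fall outside it and were picked by their values. Positions are from GENCODE M21 and promoter sequences from RefSeq (GRCm38.p6). Of 186 genes given with values, 43 overlap another annotated gene, and without the strand setting their counts are uncertain.

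The alternatives were the replicate number as a block, the E13.5 libraries alone, DESeq2 1.42.0, edgeR's RLE factors, the offsets, 2 other filters on low counts, leaving out each E13.5 library, and, chosen after seeing the data, leaving out control replicate 3 and stabilized replicate 2 together.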

Additional observations from a re-analysis of the deposited data

Results flagged for a closer look

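For each gene named with values and each library measure, the gap between the highest or lowest of 4 libraries and its nearest neighbour was divided by the group's range. Above Dixon's 95% critical value for 4 samples a library stands apart from the other 3. This was so in 43 of 365 groups of 4. Chance gives about 1 in 20 groups for normally distributed values, and CPM of genes near the floor need not be so. Where a single library holds all the counts of a group, the ratio is 1 by construction. The share of groups that stood apart can therefore not be compared with that rate. The genes share libraries, so these groups are not independent. By library, control replicate 3 stood apart as the highest in 9 groups and as the lowest in 6, and stabilized replicate 2 as the highest in 12 and the lowest in 3. Control replicates 1, 2 and 4 were the highest in 6, 4 and 3 groups.

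Stabilized replicate 2 lay on the control side at genes that fell. It was the highest stabilized library at the guidance and adhesion genes Rgmb (0.881), Fras1 (0.899) and Lama1 (0.909), at the receptor Erbb4 (0.892) and the secreted protein Ndnf (0.931), and at the sodium leak channel Nalcn (0.849). The same held for the factors Etv1 (0.851), Irx5 (0.847) and Hoxc4 (0.839), the last of which was not called, and for Btbd3 (0.834), Gca (0.919) and the viral RNA sensor Ifih1 (0.868). It was the lowest stabilized library at 3 genes that rose, En1 (0.863), Ephb1 (0.925) and Pycr1 (0.844).

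Control replicate 3 was the highest control at the rising genes Ascl4 (0.896), Bmp4 (0.9), Hmgcs1 (0.908), Postn (0.85), Thbs1 (0.943), Tpm1 (0.907) and Wif1 (0.874), and at Sox2 it was the single control with counts (1). Its mitochondrial share of counts was also the highest of the controls (0.836). It was the lowest control at the falling genes Atp8a1 (0.833), Btbd3 (0.888), Fgfr2 (0.904), Kcnd3 (0.898), Lama1 (0.83) and Rtn4rl1 (0.856).

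The other controls each stood apart as the highest library, at genes that rose in stabilized buds. Control replicate 1 was the highest at Cxcl12 (0.905) and Dlx1 (0.953), and the single control with counts at Bmp6, Hmx2, Igfbpl1 and Slc30a2 (1 at each). Control replicate 2 was the highest at Edar (0.847), Kcnv1 (0.845) and Ltbp2 (0.834), and the single control with counts at En1 (1). Control replicate 4 was the highest at Cdkn1a (0.91), and the single control with counts at Fst and Hmx3 (1 at each).

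The genotype effect differed between stages at 5562 genes by edgeR's interaction test. The effect at E16.5 minus that at E13.5, on the log2 scale, was 5.70 at Tenm2, 4.97 at Wnt4, 3.30 at Flrt3 and 3.07 at Lama3, and it was -4.05 at Vcan, -3.98 at Acsl4 and -3.54 at Bcar3. All E16.5 libraries came from female embryos and the E13.5 pools from both sexes, so stage and sex makeup cannot be told apart.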

How the results depend on the processing

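Of the 17269 genes tested, 1655 rose and 914 fell at E13.5. Fitted to the E13.5 libraries alone, 1020 rose and 631 fell, with 15448 genes tested and fewer samples to set the spread. With the factors of the second deposited table as offsets, 1147 rose and 561 fell, and 3890 genes differed between stages; the cause was not tested. Leaving out 1 library at a time gave 1298 to 1918 rising genes, 622 to 1117 falling genes and 4942 to 6094 genes that differed between stages. DESeq2 called 1999 and 1267 and 6357 between stages, RLE factors 1630 and 933, no filter 1507 and 759, and a minimum of 1 CPM in 4 libraries 1628 and 943. Rises made up 64.4% of the calls, and 61.2% to 68.4% over all these fits. Of 186 genes given with values, 18 lost their call with the offsets and 6 with the E13.5 libraries alone (Dlx1, Dpp4, Fgfr2, Lama1, Lama3 and Mitf). In the E13.5 libraries alone, 174 kept their status and 1 gained a call (Hoxc4). The rest, Hoxd1 and Hoxd3 among them, did not pass the filter of that fit and were not tested. The call was lost at 3 genes with no filter (Btc, Dpp4 and Lama3), at 1 with RLE factors (Dpp4), and at 0 with DESeq2 or the 1 CPM minimum. The Col1a1 log2 fold change, which was not called, was -0.99 with all libraries, -2.003 without stabilized replicate 4, and 0.085 without control replicate 3 and stabilized replicate 2 together; the last setting was chosen after seeing the data, and it gave 2188 rising and 1262 falling genes.

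The replicate numbers were checked for pairing: deviations of same-numbered libraries correlated across genes at -0.09, 0.17, -0.04 and 0.06. Libraries with different numbers gave -0.19 to 0.30, so these deviations showed no pairing by number. Whether same-numbered pools came from the same litter was not tested, because their litters are unknown here. With the replicate block, 1471 genes rose, 748 fell and 5040 differed between stages, and the calls of Btc, Dpp4 and Lama3 were lost. Control replicate 3 correlated best with stabilized replicate 1 (0.30).

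The common dispersion of 0.250 limits what 4 pools a genotype can show. In the simulation 53 of 100 genes changed 2-fold were recovered, with few changed genes and none of low mean CPM. A gene without a call is therefore not shown to be unchanged.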
